A study of Mus musculus with 16 samples.

Results

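Hearts of mice fed a modified primate formula, mNIA, were set against hearts of mice fed the primate formula UW: 8 of the 16 libraries of a mouse study on diet, cardiac ageing and fibrosis. The libraries were chosen by their titles, which name 4 mNIA and 4 UW animals. All were male C57BL/6 mice that entered the study at 6 weeks of age, were assigned at random and ate their diet for 6 months with free access to food. mNIA is the NIA primate formula altered so that its sucrose and fat match those of UW, so by the labels these groups share their sucrose and fat content and differ in whatever else separates the formulas. The other groups, 4 animals on NIA and 4 on a standard rodent chow, are given only beside them. Each library was made from the lower part of the ventricles of a single animal, from poly-A RNA with an integrity number above 7.0, in a strand-specific kit, and was read as single reads of 75 bases.

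The short library codes do not spell the diets of the titles: libraries titled mNIA carry the letters UC and those titled UW carry NC. Every value below rests on the titles. Read by letters alone, UC could be UW and NC could be NIA, and the comparison would then be UW against NIA.

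UW is a purified-ingredient formula and NIA a natural-ingredient one, and both are known from long-term feeding studies of rhesus monkeys. In the heart, sucrose and fat reach cardiomyocytes as glucose, fructose and fatty acids, which act on gene expression through insulin, PPAR, SREBP and LXR signalling. Resident macrophages and fibroblasts, which surround the cardiomyocytes, produce complement, chemokines, acute phase proteins and matrix. Acute phase genes are induced through NF-kB and STAT3 by cytokines such as IL-1 and IL-6.

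The 8 libraries held 3870480 to 6544172 counts in mNIA and 4880235 to 6583532 counts in UW. Pearson correlations of log2 CPM, counts scaled to library size, ran from 0.932 to 0.980 among mNIA libraries, from 0.964 to 0.978 among UW libraries and from 0.937 to 0.984 between a library of each group. The first principal component, with 39.8% of the variance, did not separate the diets: mNIA replicate 2 scored 56.9 and UW replicate 1 scored 32.9, and the other 6 libraries scored from -29.2 to -5.59. The deviations of these 2 libraries from their group means correlated at 0.581 across genes. Endothelial markers were high in both, and the quality weight that limma gives each library was 0.36 for mNIA replicate 2 and 0.58 for UW replicate 1, against 1.123 to 2.058 for the other 6. The plot of list medians shows how far each pathway list moved when 1 heart was left out.

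No gene passed an adjusted p of 0.05 among the 13381 tested with edgeR's quasi-likelihood test, and the smallest adjusted p was 0.925. At an unadjusted p under 0.05 there were 30 genes with higher values in mNIA (0.224% of those tested) and 102 with lower values (0.762%), 132 in all (0.986%). Evenly spread p-values would give 669. The count of small p-values changed with the libraries in the fit. The 4 of quality weight under 0.5 were mNIA replicate 2, NIA replicates 1 and 4 and chow replicate 3. Without them the count was 300 higher and 684 lower, with 0 genes past the adjusted threshold. That fit drops a compared heart along with hearts of the other diets, and the cause of the change was not tested. DESeq2 called 1 gene, Serpina3n, and limma-voom with quality weights called 1 gene, Ptx3, both lower in mNIA. All 4 mNIA libraries lay above all 4 UW libraries for 103 genes (0.77%) and below them for 89 (0.665%). The median log2 fold change over all tested genes was 0.02, with 6085 genes (45.5%) fitted lower in mNIA. The median 95% confidence interval reached 0.593 log2 units to each side for a typical gene with 4 hearts a group.

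**Figure D1:**
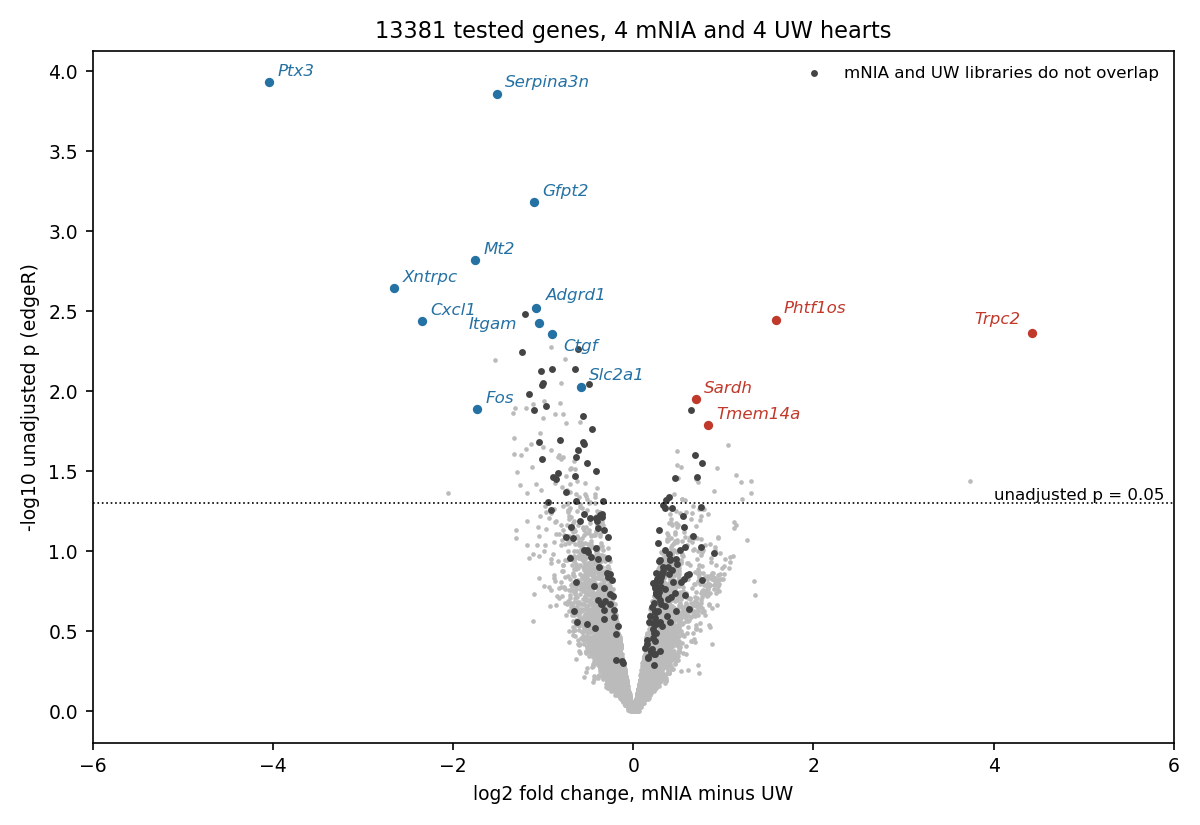
Log2 fold change of mNIA minus UW (x axis) against -log10 of the unadjusted edgeR p (y axis) for 13381 genes. Dark points are genes whose 4 mNIA and 4 UW libraries do not overlap, and coloured points with names are genes given in the text, blue for lower and red for higher in mNIA. The dotted line is an unadjusted p of 0.05, which 102 genes pass on the left and 30 on the right.

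The acute phase list held the genes with the smallest p-values. Serpina3n encodes a secreted serine protease inhibitor, Ptx3 a long pentraxin that binds microbes and complement components, and Socs3 the feedback inhibitor of JAK-STAT3 signalling. Together with Cxcl1, a chemokine that attracts neutrophils, they are textbook targets of NF-kB or STAT3. Their promoters, shown because these genes had among the lowest values of the acute phase and chemokine lists, are RefSeq sequence of build GRCm38.p6, from 250 bases before to 50 bases after the annotated start, printed 5′ to 3′ on the strand of the gene. Capitals mark matches on either strand to an NF-kB element (GGGA, any 4 bases, then CC) in Serpina3n, Ptx3 and Cxcl1, and to a STAT element, TTCNNNGAA, in Socs3.
Serpina3n promoter, chr12:104406458-104406757, plus strand: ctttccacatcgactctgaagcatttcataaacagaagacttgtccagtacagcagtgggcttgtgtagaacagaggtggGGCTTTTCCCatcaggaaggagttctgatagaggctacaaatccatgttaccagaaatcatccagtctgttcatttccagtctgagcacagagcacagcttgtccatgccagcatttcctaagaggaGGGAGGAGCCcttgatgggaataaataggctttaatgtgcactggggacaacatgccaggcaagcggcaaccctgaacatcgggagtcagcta
Ptx3 promoter, chr3:66219637-66219936, plus strand: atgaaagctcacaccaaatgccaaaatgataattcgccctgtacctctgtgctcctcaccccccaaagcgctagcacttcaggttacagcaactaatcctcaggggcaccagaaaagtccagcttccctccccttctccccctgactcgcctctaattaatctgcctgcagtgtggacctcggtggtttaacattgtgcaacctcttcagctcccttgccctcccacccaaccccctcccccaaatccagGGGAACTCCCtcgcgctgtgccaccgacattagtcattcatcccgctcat
Socs3 promoter, chr11:117969317-117969616, minus strand: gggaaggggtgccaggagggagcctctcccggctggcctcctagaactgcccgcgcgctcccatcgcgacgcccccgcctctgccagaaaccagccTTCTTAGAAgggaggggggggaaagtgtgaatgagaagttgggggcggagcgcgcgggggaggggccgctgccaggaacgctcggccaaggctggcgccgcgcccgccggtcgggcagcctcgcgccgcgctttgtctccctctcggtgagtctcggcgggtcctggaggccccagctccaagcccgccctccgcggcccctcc
Cxcl1 promoter, chr5:90890995-90891294, plus strand: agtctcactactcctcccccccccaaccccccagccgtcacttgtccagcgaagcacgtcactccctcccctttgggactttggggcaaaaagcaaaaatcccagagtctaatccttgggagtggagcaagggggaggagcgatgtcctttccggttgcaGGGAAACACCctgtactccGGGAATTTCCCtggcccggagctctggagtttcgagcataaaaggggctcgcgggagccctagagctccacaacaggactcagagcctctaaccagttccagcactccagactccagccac
The NF-kB letters occurred 2 times in the Serpina3n promoter, 1 time in that of Ptx3, where they begin at the annotated start, and 3 times in that of Cxcl1, where 2 of the matches overlap. They also occurred 1 time in the Socs3 promoter, not in capitals, and the STAT letters occurred in none of the other 3. Among 10460 promoters of tested genes in the RefSeq table, 26.2% held the NF-kB letters and 6.84% the STAT letters. A match is a description of these letters and not of a bound site.

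Serpina3n, on chr12:104406708-104414330, had 13, 10.7, 17.9 and 8.39 CPM in mNIA hearts, against 30.7, 56.8, 36.0 and 20.5 CPM in UW hearts. Every mNIA heart was below every UW heart, and the means were 12.5 ± 4.08 and 36.0 ± 15.3 CPM (SD, n = 4 each). The log2 fold change was -1.52 ± 0.32 (SE), with a 95% interval from -2.18 to -0.85 and an edgeR adjusted p of 0.925. DESeq2 gave -1.54 ± 0.33 with an adjusted p of 0.0353. Chow hearts held 15.8, 22.6, 15.3 and 19.4 CPM and NIA hearts 18.4, 16.4, 17.6 and 6.40 CPM, and of these 8 hearts only chow replicate 2 reached the UW range.

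Ptx3 had 0, 0.244, 0.156 and 0 CPM in mNIA hearts, against 1.88, 2.85, 1.75 and 0.891 CPM in UW hearts. These levels are low: 2 counts were found over the 4 mNIA libraries and 43 over the 4 UW libraries, a ratio of 0.0547 with a 95% counting interval from 0.00642 to 0.21. The groups did not overlap. limma-voom with quality weights gave a log2 fold change of -3.45 ± 0.49 and an adjusted p of 0.0118. Chow hearts held 0.195, 0.642, 2.16 and 0.676 CPM, which spread from the mNIA range to the UW range. NIA hearts held 2.10, 1.75, 1.34 and 0.711 CPM, all above the mNIA hearts, with replicates 1, 2 and 3 within the UW range. Socs3 had 3.95, 3.90, 4.37 and 2.90 CPM in mNIA hearts, against 6.30, 11.2, 7.98 and 6.98 CPM in UW hearts, again without overlap (log2 fold change -1.10 ± 0.40, unadjusted edgeR p of 0.0131).

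All 12 tested acute phase genes were fitted lower in mNIA, with a median log2 fold change of -0.54 against 0.02 over all tested genes. Of the 12, 5 had an unadjusted p under 0.05, all lower in mNIA, where the background is 0.762%; besides the 3 above they were Cp, the copper-binding ferroxidase ceruloplasmin (-0.54 ± 0.25), and Cd14, a receptor for bacterial lipopolysaccharide (-0.83 ± 0.34). None passed the adjusted threshold in edgeR. The list holds 24 genes, of which 17 were in the data and 12 were tested. This list and those below were chosen with earlier results of these data known, so their counts are descriptions and not support. The list level, taken per heart as the median, over the members, of log2 CPM after subtracting each gene's 8-library mean, was -0.34, -0.30, -0.20 and -0.32 in mNIA hearts and 0.57, 0.73, 0.20 and -0.02 in UW hearts. The mNIA hearts were tightly grouped and UW replicate 4 came nearest to them. Leaving out any of the 8 libraries gave medians from -0.65 to -0.44, and leaving out both mNIA replicate 2 and UW replicate 1 gave -0.49 with 11 of 12 genes fitted lower.

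**Figure D2:**
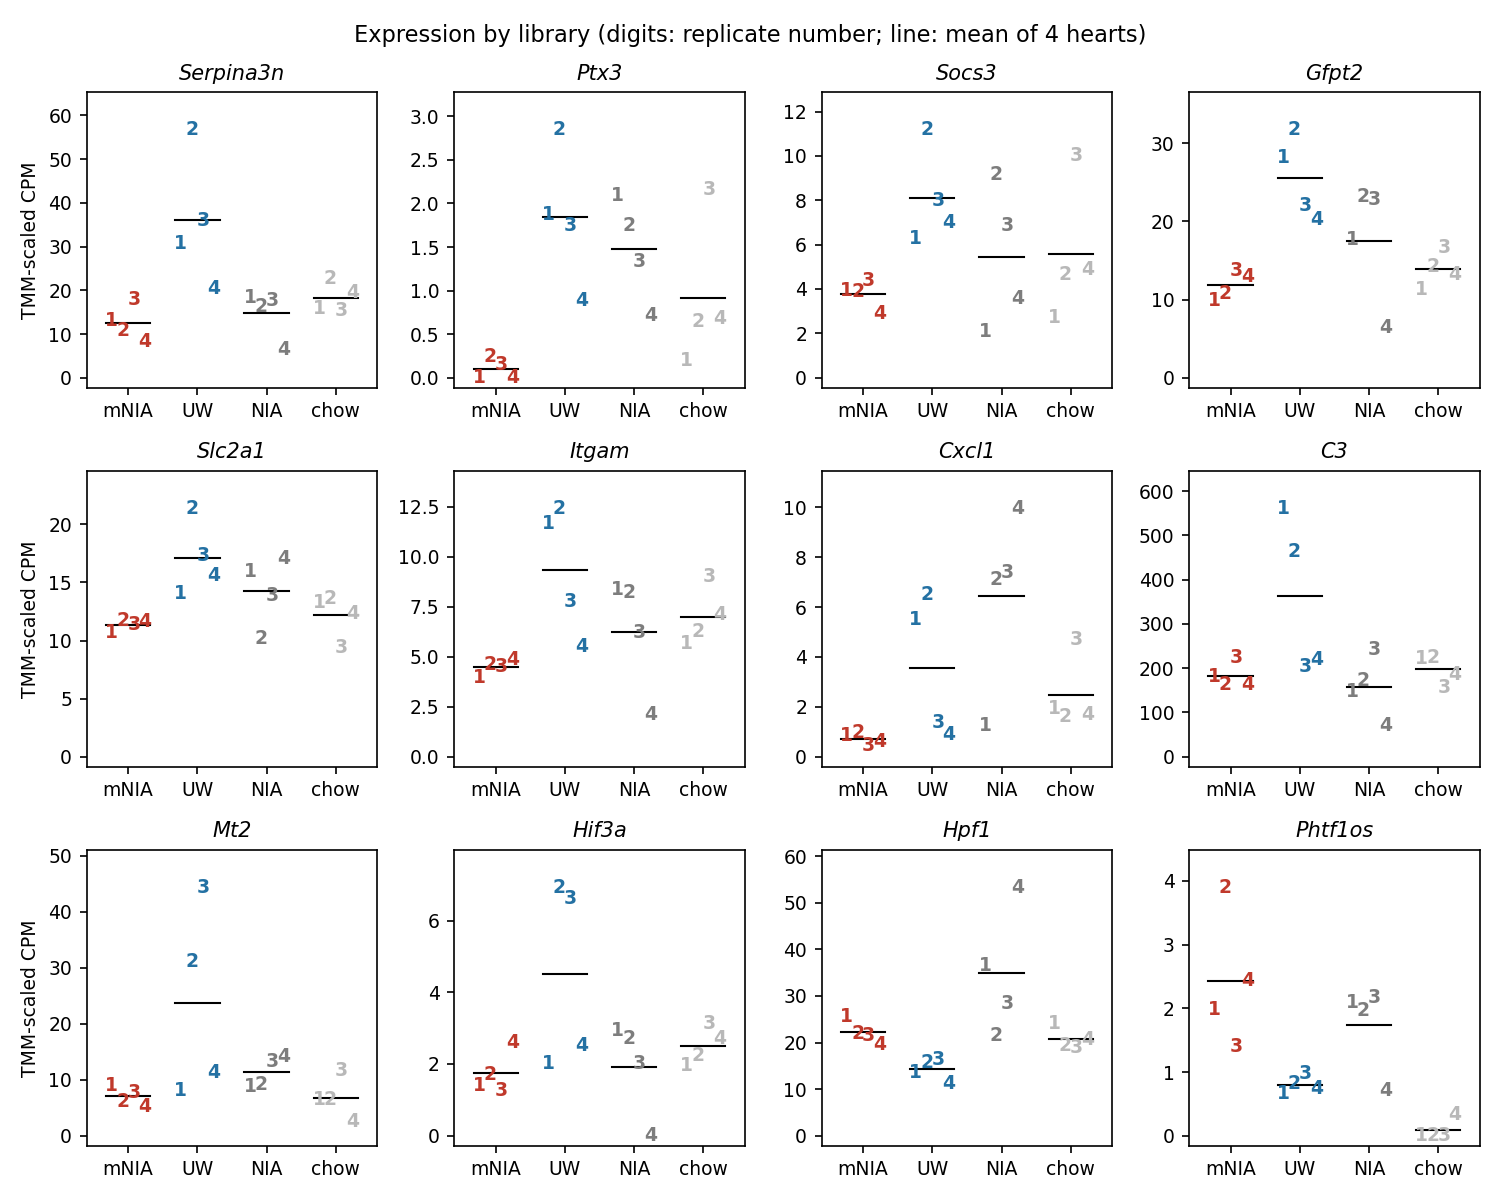
TMM-scaled CPM (y axes, linear from near 0) of 12 genes in every library of the 4 diets (x axes). Each digit is the replicate number of a heart and each line the mean of 4 hearts. Serpina3n, Ptx3, Socs3, Gfpt2, Slc2a1 and Itgam have every mNIA heart below every UW heart, Hpf1 and Phtf1os every mNIA heart above, and C3, Cxcl1, Mt2 and Hif3a are high in only 2 UW hearts.

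Complement genes showed the same direction, but the UW hearts were split. Complement is a cascade of plasma and locally made proteins that opsonise and lyse cells. Of 19 tested members 18 were fitted lower in mNIA, against 45.5% of all tested genes, with a median of -0.58. Of the 19, 7 had an unadjusted p under 0.05, all lower in mNIA, against 0.762% of all tested genes. C3, the central component, had 180, 164, 225 and 162 CPM in mNIA hearts, against 561, 464, 204 and 220 CPM in UW hearts (log2 fold change -0.99 ± 0.35, unadjusted edgeR p of 0.0116). UW replicates 1 and 2 were high and UW replicates 3 and 4 lay within the mNIA range. C4b, of the classical pathway, followed the same pattern, with 8.47, 14.6, 25.0 and 12.8 CPM in mNIA hearts and 59.8, 58.9, 19.9 and 15.6 CPM in UW hearts. The other members under that p were the receptors C3ar1 (-1.003) and C5ar1 (-0.65), the pore component C7 (-1.04), the recognition subunit C1qb (-0.78) and the inhibitor Cd55 (-0.51). Without UW replicate 1 the values were -0.60 for C3ar1, -0.38 for C5ar1, -0.41 for C7 and -0.18 for Cd55, and the list median was -0.38 with 17 of 19 fitted lower. No member had groups without overlap. The list level was -0.34, -0.01, -0.13 and -0.43 in mNIA hearts and 0.91, 0.40, -0.12 and -0.21 in UW hearts.

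Macrophage markers, of which C1qa, C1qb and C1qc are also on the complement list, behaved alike. All 19 were fitted lower in mNIA, with a median of -0.56. Of the 19, 4 had an unadjusted p under 0.05, all lower in mNIA, against 0.762% of all tested genes. They were C1qb, Lyz2, which encodes lysozyme (-0.80), Mrc1, the mannose receptor (-0.48), and F13a1, a coagulation factor chain of resident macrophages (-0.52). The list level was -0.18, 0.05, -0.20 and -0.56 in mNIA hearts, against 0.84, 0.52, -0.21 and -0.21 in UW hearts. Summed over the 19 markers, the level was 290.5 to 426.6 CPM in mNIA hearts and 348.1 to 758.9 CPM in UW hearts, and no marker was at 0 in a group. Only UW replicates 1 and 2 were high. Without UW replicate 1 the median was -0.35, with Lyz2 at -0.50 and Mrc1 at -0.22, and without both mNIA replicate 2 and UW replicate 1 the median was -0.36 with 17 of 19 fitted lower. Complement, acute phase and chemokine genes are in part made by macrophages, and the part of the marker difference in theirs was not tested. In tissue RNA, fewer macrophages and less RNA per macrophage cannot be told apart.

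Itgam, the CD11b integrin chain of macrophages and granulocytes, had 3.95, 4.63, 4.53 and 4.88 CPM in mNIA hearts, against 11.7, 12.4, 7.79 and 5.49 CPM in UW hearts. Its groups did not overlap (log2 fold change -1.04 ± 0.31, unadjusted edgeR p of 0.00374). Lyve1, the hyaluronan receptor of lymphatic endothelium and of a resident macrophage subset, had 13.6, 16.8, 11.7 and 16.6 CPM in mNIA hearts and 22.1, 31.0, 22 and 17.1 CPM in UW hearts, also without overlap. Of the granulocyte and mast cell markers only 4 of 15 were tested and none had an unadjusted p under 0.05.

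MHC class II genes, which present antigen to CD4+ T cells, had the lowest list median, -0.60, with 8 of 9 fitted lower and none under an unadjusted p of 0.05. H2-Ab1 had 27.4, 28.3, 26.9 and 21.4 CPM in mNIA hearts, against 64.5, 47.5, 22 and 23.8 CPM in UW hearts. UW replicates 1 and 2 were above all mNIA hearts, and UW replicates 3 and 4 lay within the mNIA range. Without UW replicate 1 the list median was -0.24 with 6 of 9 fitted lower. Of 55 interferon-stimulated genes 24 were fitted higher and 31 lower, with a median of -0.04. That median was -0.31 with 49 of 55 fitted lower without mNIA replicate 2, 0.12 with 15 fitted lower without UW replicate 1, 0.12 without mNIA replicate 4, -0.10 without UW replicate 3 and -0.14 without UW replicate 4. Of 5 tested lymphocyte markers, 2 were fitted higher and 3 lower.

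Among chemokines 16 of 19 were fitted lower, with a median of -0.27. Of the 19, 4 had an unadjusted p under 0.05, all lower in mNIA, against 0.762% of all tested genes. The median was -0.08 with 11 of 19 fitted lower without UW replicate 1, and -0.50 with 17 fitted lower without mNIA replicate 2. Cxcl1 had 0.847, 0.975, 0.468 and 0.610 CPM in mNIA hearts, against 5.49, 6.52, 1.36 and 0.891 CPM in UW hearts (log2 fold change -2.34 ± 0.70). The NIA hearts, at 1.26, 7.11, 7.36 and 9.96 CPM, and the chow hearts, at 1.95, 1.61, 4.71 and 1.69 CPM, all lay above the mNIA hearts, and UW replicate 4 lay among the mNIA hearts. Ccl6, a macrophage chemokine of rodents, had 5.36, 11, 10.3 and 6.87 CPM in mNIA hearts and 20.5, 24.0, 12.3 and 11.6 CPM in UW hearts, without overlap. The others were Ccl2, which recruits monocytes (-1.14 ± 0.45, and -1.83 without mNIA replicate 2), and Ccl9, a related rodent chemokine (-0.62 ± 0.28).

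**Figure D3:**
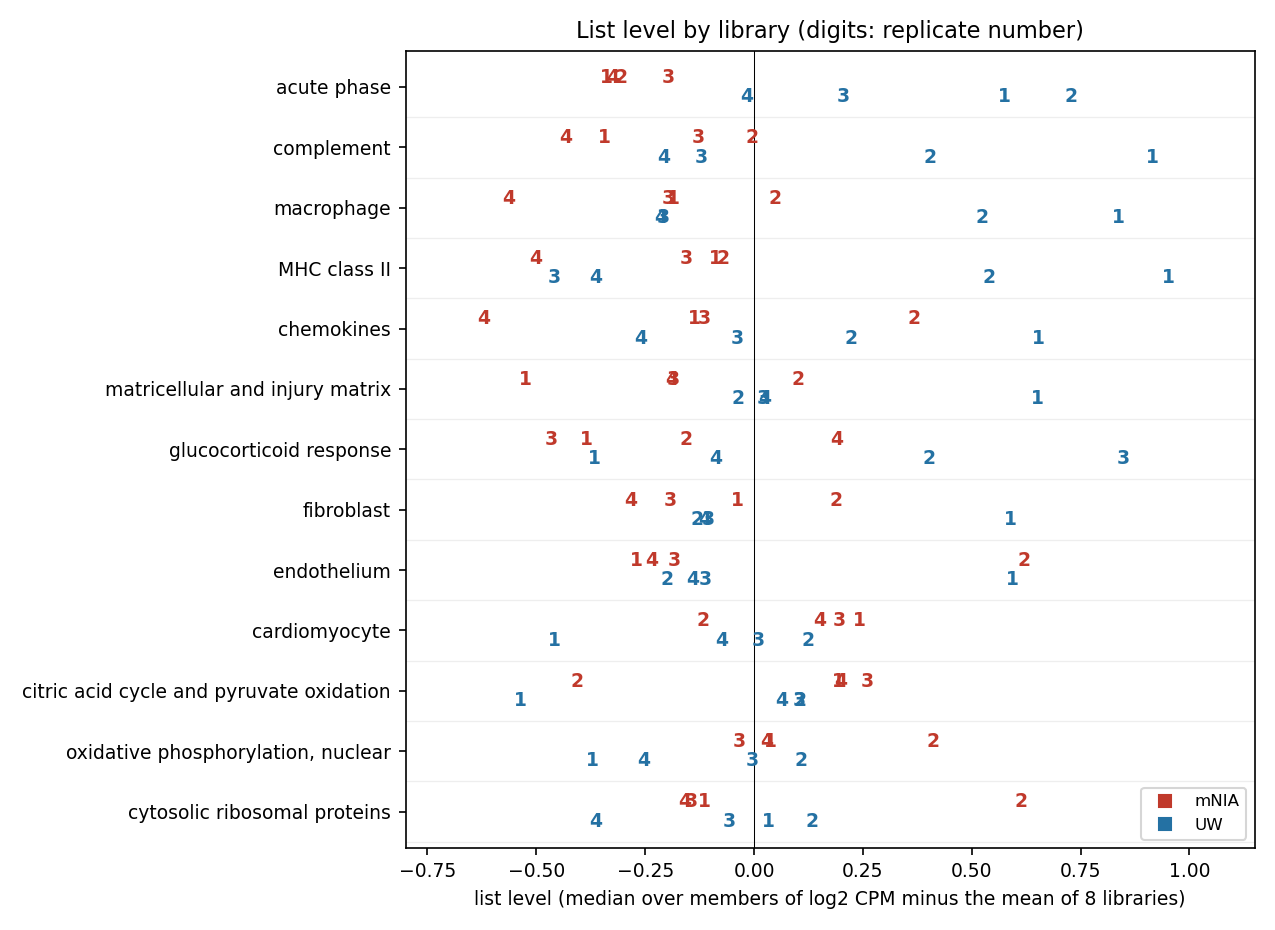
Level of 13 gene lists (rows) in each of the 4 mNIA (red) and 4 UW (blue) hearts, as the median of the members' log2 CPM centred on the 8 libraries (x axis). Each digit is a replicate number. The acute phase row has all mNIA hearts below all UW hearts. In the complement, macrophage and MHC class II rows UW replicates 1 and 2 are high, and mNIA replicate 2 and UW replicate 1 lie together in the endothelium and citric acid cycle rows.

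Genes of glucose entry and of the hexosamine pathway gave the next non-overlapping pairs. Gfpt2, an isoform of the enzyme that commits fructose 6-phosphate to hexosamine synthesis, had 9.88, 10.7, 13.7 and 13 CPM in mNIA hearts, against 28.1, 31.8, 22 and 20.2 CPM in UW hearts. The means were 11.8 ± 1.82 and 25.5 ± 5.38 CPM (SD, n = 4 each), and the log2 fold change was -1.10 ± 0.27 with an unadjusted edgeR p of 0.000656. The chow hearts, at 11.3, 14.3, 16.7 and 13.2 CPM, lay below all UW hearts. The NIA hearts held 17.6, 23.2, 22.8 and 6.40 CPM, with replicates 2 and 3 within the UW range. Slc2a1, the insulin-independent glucose transporter GLUT1, had 10.7, 11.7, 11.4 and 11.6 CPM in mNIA hearts and 14.1, 21.4, 17.3 and 15.6 CPM in UW hearts (log2 fold change -0.58 ± 0.20). The mNIA hearts were close to each other and all below the UW hearts.

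The rest of these pathways did not go with them. The 12 hexosamine genes had a median of -0.02, with 5 fitted higher and 7 lower. Of 32 genes of glucose uptake and glycolysis 24 were fitted higher, with a median of 0.09, but 19 were fitted lower with a median of -0.02 without UW replicate 1. Slc2a4, the insulin-dependent transporter GLUT4, averaged a log2 fold change of 0.07 with an interval from -0.51 to 0.64. Txnip, a glucose-induced inhibitor of glucose uptake, had 860, 601, 705 and 480 CPM in mNIA hearts and 485, 397, 643 and 456 CPM in UW hearts, which overlap (0.42 ± 0.29).

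Genes of lipid and sugar metabolism can be read as the pathways on which sucrose and fat would bear, and the labels give both groups the same content of these. Fasn, the fatty acid synthase, had 19.8, 14.9, 24.4 and 23.3 CPM in mNIA hearts, against 22.1, 38.1, 23.8 and 26.9 CPM in UW hearts, with a log2 fold change of -0.42 and an interval from -0.93 to 0.09. The desaturase Scd1 gave -0.24 (-0.60 to 0.12) and the cholesterol exporter Abca1 -0.40 (-0.83 to 0.02). The fructose-phosphorylating Khk gave -0.00 (-0.40 to 0.39), the amylase gene Amy1 0.26 (-0.13 to 0.64) and the fatty acid translocase Cd36 -0.12 (-0.74 to 0.49). Each of these intervals includes 0 and also differences up to its ends. The size of difference detectable with 4 hearts a group was not computed.

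As lists, fatty acid synthesis and desaturation had 19 of 23 genes fitted lower (median -0.11, and -0.19 without mNIA replicate 1), LXR targets 13 of 17 (median -0.14, and -0.05 without mNIA replicate 3) and cholesterol synthesis and uptake 12 of 24 (median -0.01). Mylip, an LXR-induced ubiquitin ligase, was the member under an unadjusted p of 0.05 (-0.40 ± 0.18). Fatty acid oxidation had 19 of 27 fitted higher (median 0.08), but 20 fitted lower without UW replicate 1 (median -0.05). PPAR targets had 17 of 25 fitted lower with a median of -0.12, but 0.10 without UW replicate 3. Pdk4, the kinase that blocks pyruvate oxidation in fasting, had 947, 224, 662 and 421 CPM in mNIA hearts, against 358, 231, 2441 and 675 CPM in UW hearts, high in that heart alone. The log2 fold change of Pdk4 was -0.72 with all libraries and 0.42 without that heart.

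UW replicate 3 also stood out in the glucocorticoid list. Of 24 tested genes 23 were fitted lower in mNIA, with a median of -0.36, but the list level was 0.85 in UW replicate 3 and 0.40 in UW replicate 2, against -0.37 and -0.09 in UW replicates 1 and 4. The mNIA hearts lay at -0.39, -0.16, -0.47 and 0.19. Without UW replicate 3 the median was -0.06 with 15 fitted lower. It was -0.22 without mNIA replicate 1, -0.24 without mNIA replicate 3 and -0.61 without mNIA replicate 4. Hif3a, a hypoxia-inducible factor subunit and glucocorticoid target, had 1.41, 1.71, 1.25 and 2.59 CPM in mNIA hearts, against 2.01, 6.93, 6.62 and 2.52 CPM in UW hearts, with UW replicates 2 and 3 high.

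Mt2, a metallothionein that binds zinc and copper and is induced by metals and glucocorticoids, had 9.03, 6.09, 7.81 and 5.19 CPM in mNIA hearts, against 8.04, 31.2, 44.4 and 11.3 CPM in UW hearts. The same 2 UW hearts were high, and UW replicate 1 lay within the mNIA range (log2 fold change -1.75 ± 0.47, unadjusted edgeR p of 0.00151). Its promoter is shown because it carries repeats of the metal response element core, TGCNCNC, which capitals mark on either strand.
Mt2 promoter, chr8:94172368-94172667, plus strand: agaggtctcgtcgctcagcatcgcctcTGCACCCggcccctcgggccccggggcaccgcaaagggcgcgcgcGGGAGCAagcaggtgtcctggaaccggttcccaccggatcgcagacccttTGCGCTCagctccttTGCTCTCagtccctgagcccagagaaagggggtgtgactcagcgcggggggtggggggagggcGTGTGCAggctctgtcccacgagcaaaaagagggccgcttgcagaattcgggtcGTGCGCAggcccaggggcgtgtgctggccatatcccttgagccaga
There were 6 matches. The letters are common, in 59.6% of the 10460 promoters. Mt1, its neighbour in the metallothionein cluster, had 69.4, 62.6, 48.2 and 60.6 CPM in mNIA hearts and 42.3, 116, 127 and 49.6 CPM in UW hearts, high in the same 2 UW hearts. In the metal handling list 14 of 19 were fitted lower (median -0.22, and -0.09 without UW replicate 1), with Cp, Mt2 and Hmox1, the haem oxygenase (-0.54 ± 0.24), under an unadjusted p of 0.05.

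Immediate early genes, which are switched on within minutes by growth factors and stress, had 21 of 25 fitted lower, with a median of -0.32, and -0.74 without mNIA replicate 4. Fos had 1.98, 3.66, 7.65 and 5.19 CPM in mNIA hearts, against 17.1, 24.2, 17.7 and 5.34 CPM in UW hearts, where UW replicate 4 lay within the mNIA range (log2 fold change -1.73 ± 0.63). Its partner Fosb reached 11.2 CPM in UW replicate 2 and 1.04 to 2.53 CPM in the other UW hearts, against 0 to 1.72 CPM in mNIA hearts, and its log2 fold change of -2.06 was -0.79 without that heart. In the unfolded protein response and ATF4 list 27 of 33 were fitted lower with a median of -0.14. Sdf2l1, an endoplasmic reticulum chaperone partner, had 3.67, 3.66, 2.65 and 1.98 CPM in mNIA hearts and 5.63, 8.15, 3.70 and 5.94 CPM in UW hearts, without overlap but with UW replicate 3 just above mNIA replicate 1. Chac1, an ATF4 target that degrades glutathione, gave -1.11 ± 0.40, and -1.68 without mNIA replicate 4.

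The study asks about fibrosis, and the fibrillar collagens did not separate these diets. Col1a1, the main chain of scar collagen, had 116, 119, 108 and 85.4 CPM in mNIA hearts, against 198, 117, 98.7 and 113 CPM in UW hearts. Col3a1 had 242, 207, 253 and 191 CPM in mNIA hearts and 457, 222, 202 and 245 CPM in UW hearts. In both genes UW replicate 1 was high and the other hearts overlapped. Of 8 tested fibrillar collagens 6 were fitted lower, with a median of -0.15, but 0.09 without UW replicate 1. Fibroblast markers had 14 of 18 fitted lower (median -0.16, and 0.05 without that heart), and their level in UW replicate 1 was 0.59 against -0.13 to -0.11 in the other UW hearts. Postn, a matricellular protein of activated fibroblasts, gave -0.12 ± 0.21, and the cytokine gene Tgfb1 -0.12 ± 0.26.

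Matricellular genes, which regulate cell adhesion to matrix after injury, had 18 of 22 fitted lower with a median of -0.41. Of the 22, 5 had an unadjusted p under 0.05, all lower in mNIA, against 0.762% of all tested genes. Ctgf, a connective tissue growth factor, had 38.4, 32.7, 61.7 and 52.3 CPM in mNIA hearts, against 65.7, 79.0, 148 and 53.6 CPM in UW hearts. Its interval, from -1.48 to -0.32, did not include 0, but mNIA replicate 3 lay above UW replicate 4, and the log2 fold change of -0.90 was -0.51 without UW replicate 3. Tnc, tenascin C, had 0.564, 1.46, 1.25 and 1.22 CPM in mNIA hearts and 4.42, 1.43, 2.34 and 4.90 CPM in UW hearts (-1.53 ± 0.50). Mfap5, a microfibril protein, gave -0.81 ± 0.29. The list level in UW replicate 1 was 0.65 against -0.04 to 0.02 in the other UW hearts, and without that heart the median was -0.18 with 16 of 22 fitted lower.

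Among matrix proteases and inhibitors 17 of 21 were fitted lower (median -0.19, and -0.06 with 12 fitted lower without UW replicate 1, where the list level was 0.53). Without mNIA replicate 2 the median was -0.32. Timp1, a metalloproteinase inhibitor, had 2.54, 0.975, 2.5 and 1.07 CPM in mNIA hearts, against 4.96, 4.28, 6.23 and 2.23 CPM in UW hearts, where UW replicate 4 overlapped the mNIA hearts. Mmp3, the metalloproteinase stromelysin 1, gave -0.83 ± 0.34. TGF-beta signalling genes had 17 of 21 fitted lower (median -0.14, but -0.04 with 12 fitted lower without UW replicate 1 and -0.26 without mNIA replicate 2) and none under an unadjusted p of 0.05.

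Genes of respiration, ribosomes and the sarcomere had small medians above 0. All 51 nuclear genes of oxidative phosphorylation were fitted higher in mNIA, with a median of 0.24, 52 of 54 cytosolic ribosomal protein genes with a median of 0.16, 24 of 25 citric acid cycle genes with a median of 0.13 and 20 of 23 sarcomere genes with a median of 0.15. None of these genes had an unadjusted p under 0.05. The oxidative phosphorylation level was 0.04, 0.41, -0.04 and 0.03 in mNIA hearts, against -0.37, 0.11, -0.00 and -0.25 in UW hearts, high in mNIA replicate 2 and low in UW replicate 1. Leaving out 1 heart at a time gave medians from 0.005 to 0.23 for the citric acid cycle and from 0.03 to 0.21 for the sarcomere. Both were lowest without UW replicate 1, with 11 of 25 citric acid cycle genes and 9 of 23 sarcomere genes fitted lower. Without mNIA replicate 2 and UW replicate 1 the oxidative phosphorylation median was 0.06, with 8 of 51 fitted lower. The ribosomal protein level was 0.61 in mNIA replicate 2 and -0.16 to -0.12 in the other mNIA hearts, against 0.03, 0.13, -0.06 and -0.36 in UW hearts, and without mNIA replicate 2 the median was -0.12 with 45 of 54 fitted lower. Each gene's log2 CPM, taken relative to its median over all 16 libraries, was also set against the length of its longest transcript. Across genes the Spearman rho was -0.231 in mNIA replicate 2, against 0.156 to 0.312 in the other mNIA hearts. In UW hearts it ran from -0.01 to 0.448, with UW replicate 4 highest. The part of this in the ribosomal and respiratory genes, whose transcripts are short, was not tested.

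Heart stress genes overlapped between the diets. Nppa, atrial natriuretic peptide, had 114, 207, 112 and 119 CPM in mNIA hearts, against 97.4, 161, 102 and 82.8 CPM in UW hearts. Nppb, the related B-type peptide, gave -0.35 ± 0.42. The myosin heavy chain genes Myh7 (0.18 ± 0.41) and Myh6 (0.19 ± 0.48) and the smooth muscle actin gene Acta2 (0.08 ± 0.26) had intervals on both sides of 0. Cardiomyocyte markers, which check the tissue, were all present: 12 of 12 were tested, with a level of 0.24, -0.12, 0.20 and 0.15 in mNIA hearts and -0.46, 0.12, 0.01 and -0.07 in UW hearts.

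Fewer genes had an unadjusted p under 0.05 with higher values in mNIA, 30 against 102 with lower values. Hpf1, the cofactor that directs PARP1 to serine residues, had 25.7, 21.9, 21.5 and 19.5 CPM in mNIA hearts, against 13.7, 15.7, 16.4 and 11.3 CPM in UW hearts, without overlap (log2 fold change 0.64 ± 0.23). Chow hearts, at 24.0, 19.4, 19.0 and 20.6 CPM, were all above the UW hearts too. Tmem14a, a small membrane protein gene, had 3.95, 3.41, 3.43 and 3.66 CPM in mNIA hearts and 2.41, 1.43, 2.73 and 1.48 CPM in UW hearts, without overlap (0.83 ± 0.32). Rfc4, a subunit of the clamp loader of DNA replication (0.68 ± 0.28), and Fam241b (0.70 ± 0.31) also did not overlap.

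Sardh, the mitochondrial sarcosine dehydrogenase of one-carbon metabolism, had 8.75, 6.09, 8.43 and 10.4 CPM in mNIA hearts, against 5.63, 6.52, 3.50 and 5.20 CPM in UW hearts, with 1 heart of each group overlapping (0.70 ± 0.25). The other genes named by the smallest p were Radil, a Rap GTPase effector (1.06 ± 0.42), the amino acid transporter Slc36a2 (0.48 ± 0.19) and the condensin subunit Ncaph (0.93 ± 0.40). Phtf1os had 1.98, 3.90, 1.41 and 2.44 CPM in mNIA hearts and 0.670, 0.815, 0.974 and 0.742 CPM in UW hearts. It lies antisense to Phtf1, and whether the counting used strand is not given in the sources used here.

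A pair of overlapping genes on 1 strand went opposite ways. Trpc2, a channel gene, had 0.282, 6.34, 1.41 and 3.66 CPM in mNIA hearts, against 0.134, 0, 0.195 and 0.148 CPM in UW hearts. Xntrpc, a readthrough gene over the same locus, had 0.282, 0.487, 0.156 and 0.915 CPM in mNIA hearts and 2.28, 3.26, 2.34 and 4.45 CPM in UW hearts. Neither gene overlapped between the diets in CPM. For Trpc2, mNIA replicate 1 held 1 count and the UW libraries 1, 0, 1 and 1 counts. That heart is thus set apart from the UW hearts with 1 count by library size alone. Trpc2 and Xntrpc share sequence on the same strand, so how reads were divided between them is uncertain. Neither is a measure of its own gene alone. Radil overlaps Papolb on the same strand, so its value is uncertain in the same way. Ptx3, Rfc4, Timp1, Ccl6, Cp, Txnip and Myh7 overlap genes of the opposite strand.

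Adgrd1, an adhesion G protein-coupled receptor, had 5.64, 7.07, 7.65 and 6.41 CPM in mNIA hearts, against 22.6, 14.9, 8.57 and 10.5 CPM in UW hearts, without overlap (-1.08 ± 0.32). Aldh1a2, which makes retinoic acid and marks epicardium, had 5.08, 8.29, 5.78 and 4.88 CPM in mNIA hearts and 15.9, 13.8, 7.59 and 7.42 CPM in UW hearts, with mNIA replicate 2 above the 2 lowest UW hearts (-0.91 ± 0.29). Among the retinoid, thyroid and aryl hydrocarbon targets 14 of 23 were fitted lower (median -0.07). Of these, Hr, a thyroid hormone-induced corepressor (-0.51 ± 0.21, and -0.34 without UW replicate 4), and Dio2, the deiodinase that activates thyroid hormone (-0.87 ± 0.39), were also under an unadjusted p of 0.05.

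Cyp1a1, the cytochrome P450 that the aryl hydrocarbon receptor induces, was too unevenly found to pass the filter on low counts and was named after its values were seen. It had 0 counts in all 4 mNIA libraries, which allows up to 3 over the group, against 86, 23, 0 and 32 counts in UW libraries, at least 39.9-fold higher in UW by CPM when mNIA is set at that limit, leaving aside the counting error of the UW libraries. UW replicate 3 was also at 0. In CPM the UW libraries held 11.5, 4.69, 0 and 4.75, the NIA libraries 0, 0.258, 0 and 0 and the chow libraries 0.586, 0.321, 0 and 0.676. The NIA value comes from 19 counts in a library of 63005490, much deeper than the others.

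Over the 41 pathway lists the medians ran from -0.60 for MHC class II to 0.24 for oxidative phosphorylation, and 26 were below 0. Among those near the median of all genes were the circadian clock at 0.05, branched-chain amino acid breakdown at 0.05, insulin signalling at -0.03, NRF2 and antioxidant genes at -0.02 and fructose metabolism at 0.04. Of the 17 marker lists, macrophages had the lowest median and erythrocytes and platelets the highest, 0.25, with a level of 0.91 in mNIA replicate 2. Endothelial markers had a median of -0.07, with 0.62 in mNIA replicate 2 and 0.59 in UW replicate 1 against -0.27 to -0.11 in the other 6 hearts.

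**Figure D4:**
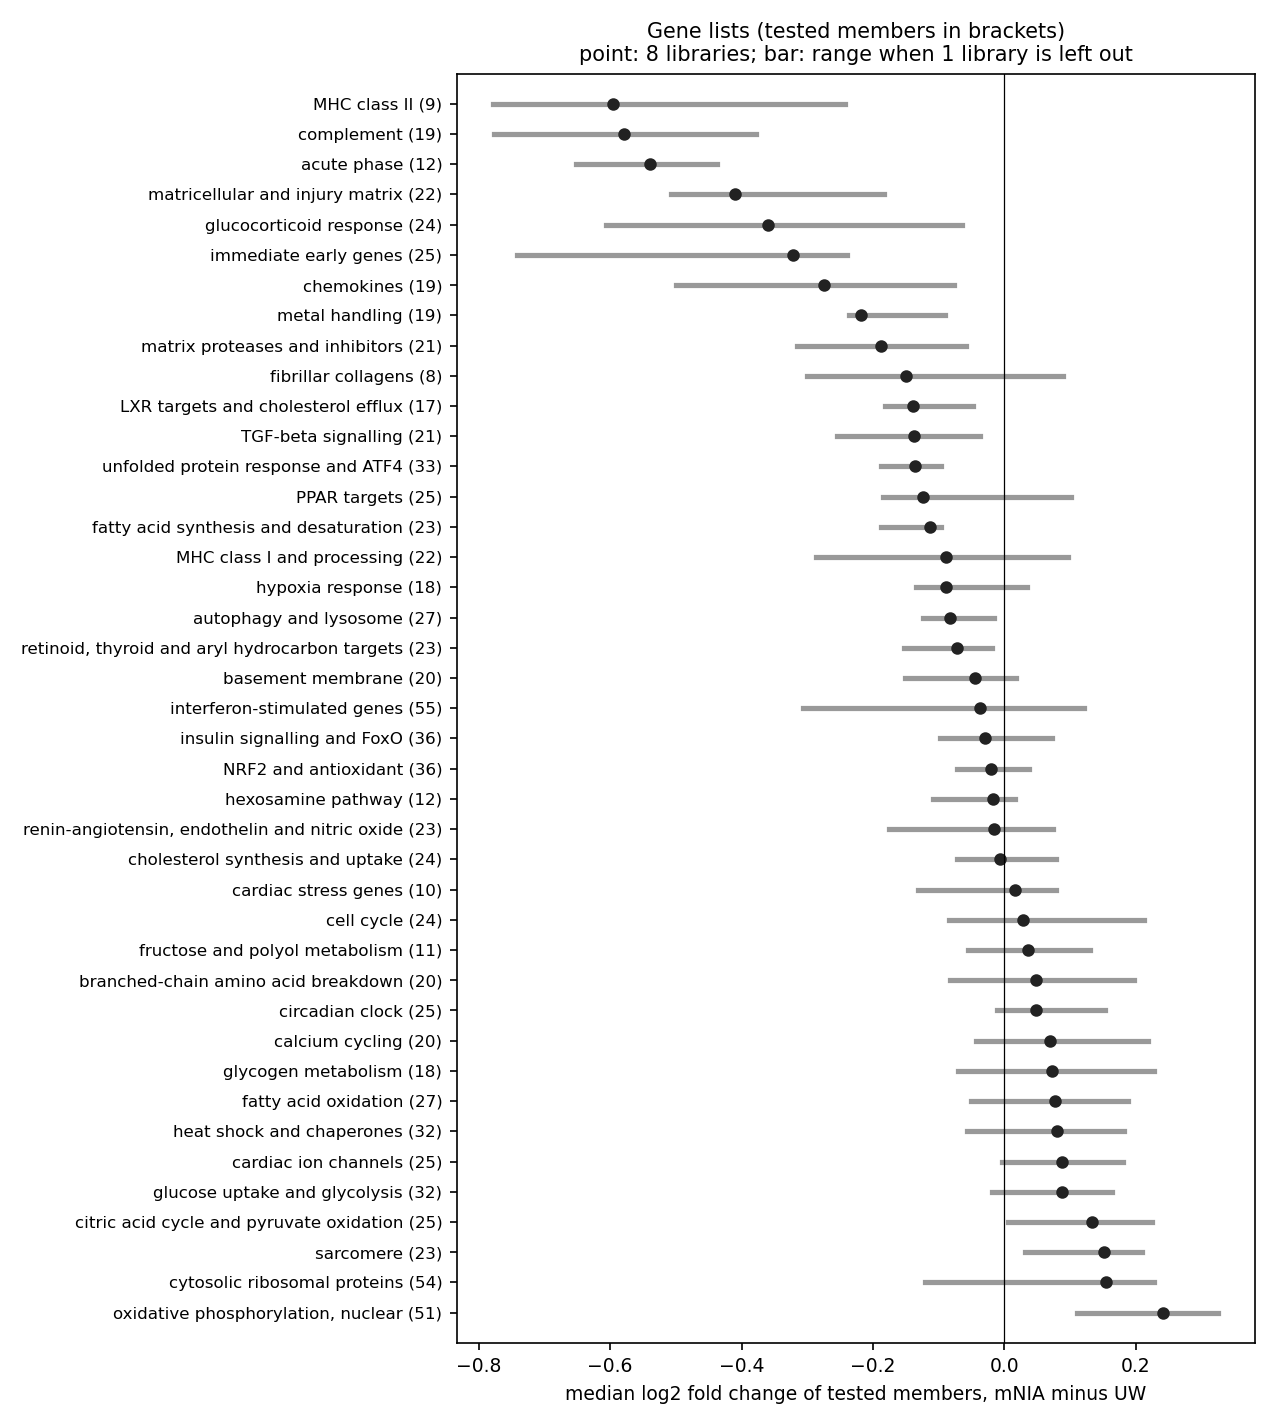
Median log2 fold change of mNIA minus UW (x axis) over the tested members of 41 gene lists (rows, number of tested members in brackets). Points use all libraries and grey bars span the medians when each of the 8 libraries is left out in turn. MHC class II, complement and acute phase lie lowest, at -0.60, -0.58 and -0.54, and bars that cross 0, such as those of fibrillar collagens, PPAR targets and ribosomal proteins, mark lists whose sign depends on 1 heart.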

How the data were processed

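The authors deposited 1 table of expected counts per gene (17737 gene symbols with mm10 positions), not scaled, which the submitters' processing notes tie to BWA, DESeq2 and mm10. The counting tool, gene models and use of strand are not given in the sources used here. Counts were rounded to whole numbers. Genes were kept by filterByExpr with diet as group (13381, 75.4%), scaled by TMM and tested with edgeR 4.0.16 under R 4.3.3 in a quasi-likelihood fit of all 16 libraries with 1 mean per diet, with Benjamini-Hochberg adjustment of p over every gene tested. limma 3.58.1 (voom with quality weights) and DESeq2 1.42.0 were alternatives, and the script was tested on simulated data. The simulation used the same spread for every gene and no outlying hearts, so it does not measure power in these data. Members and gene lists were chosen with earlier results of these data known. Lists are described by counts and medians of log2 fold changes, with no test. The genes named are the 10 of smallest p in each direction (over 1 CPM in a group, no clone names), the 3 of smallest p of each list and a fixed set of cardiac, matrix and metabolic genes, of which Cxcl10 was filtered out; C4b, C1qb, C5ar1, Cd55, Cd14, Lyz2, Mrc1, F13a1, Ccl9, Mt1 and Cyp1a1 were added after their values were seen. Values of a few genes that this rule names are not reported here. Intervals on counts cover counting error only. CPM values carry no correction for length, so they are compared between hearts and not between genes.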

Additional observations from a re-analysis of the deposited data

Results flagged for a closer look

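Of 274 sets of 4 hearts of 1 diet (values of named genes and levels of lists), 21 held a heart far from the other 3 by Dixon's test, where chance gives about 1 in 20, or 14. In 10 of them the heart was mNIA replicate 2, and in 10 it was UW replicate 1. The sets draw on the same hearts and share genes, so they are not independent, and 21 against 14 is not a test. mNIA replicate 2 was high in Nppa (207.4 CPM), Irf8 (8.53 CPM) and in the levels of oxidative phosphorylation (0.412), ribosomal proteins (0.613), MHC class I and processing (0.544) and endothelium (0.619). It was low in the levels of cardiac ion channels (-0.618), fatty acid oxidation (-0.326), fatty acid synthesis (-0.307) and the citric acid cycle (-0.406). UW replicate 1 was high in Col3a1 (456.8 CPM), Tgfb1 (48.5 CPM) and in the levels of matricellular genes (0.651), endothelium (0.593), fibroblasts (0.59) and epicardial markers (1.403). It was low in Myh6 (16670 CPM) and in the levels of branched-chain amino acid breakdown (-0.523), the citric acid cycle (-0.537) and heat shock genes (-0.455). UW replicate 2 was high in Fosb (11.2 CPM).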

How the results depend on the processing

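The 20 alternatives changed scaling, filter, tool, samples or the replicate block; 3 of them, the fits with chow, without the 4 libraries of low quality weight and without both mNIA replicate 2 and UW replicate 1 (the pair), were chosen after seeing the data. The count of 0 genes past the adjusted threshold was 1 under DESeq2 (Serpina3n), 1 under limma-voom with quality weights (Ptx3), and 0 to 1 when 1 library was left out, where the 1 was Cyp1a1 without UW replicate 3. That heart is the UW heart at 0 counts, so Cyp1a1 passed the filter there only through the hearts where it is high, and the call supports nothing. All 3 were lower in mNIA. Ptx3 could be fitted in 17 of the 20, and Serpina3n kept its sign in all, from -1.76 to -1.21. The 192 genes without overlap became 788 without the 4 libraries of quality weight under 0.5, 1095 without both mNIA replicate 2 and UW replicate 1, and 367 to 774 without 1 library, since fewer hearts overlap less. Unadjusted p-values under 0.05 were 206 higher and 362 lower under limma-voom and 74 higher and 186 lower with the mNIA and UW libraries alone.

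Of 79 named genes 69 kept their sign throughout, as did 24 of 58 lists. Many of these genes were named by small p in this same contrast or after their values were seen. That choice favours a kept sign, so the count is not support. Of the other 10 genes, Acta2 (0.08) gave -0.037 under limma-voom, -0.12 without the 4 libraries and -0.114 without the pair; Col3a1 gave 0.031 and Nppa -0.003 without the pair. Without 1 library, the lowest and highest values were -0.114 and 0.226 for Acta2, -0.464 and 0.00 for Col3a1, -0.008 and 0.394 for Myh6, -0.086 and 0.07 for Khk, -0.053 and 0.242 for Slc2a4, -0.261 and 0.03 for Postn, -0.36 and 0.033 for Tgfb1, -1.105 and 0.422 for Pdk4, and -0.209 and 0.012 for Cd36. The cause was not tested.

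The replicate block, in which hearts of the same number are paired, gave 0 genes past the threshold with all libraries and 0 with the 8 alone. The numbers share no label of litter or day, and same-numbered hearts had correlations of -0.329, -0.173, -0.123 and 0.197, so they were not taken as pairs. Low depth limits Ptx3, Cxcl1, Xntrpc, Trpc2 and Cyp1a1 most.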

Other observations

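Several groups of heart muscle genes had medians near that of all genes. Of 20 calcium cycling genes 15 were fitted higher in mNIA (median 0.07), of 25 ion channel genes 16 (median 0.09), of 32 heat shock and chaperone genes 19 (median 0.08) and of 18 glycogen genes 11 (median 0.07). None of their members had an unadjusted p under 0.05. In each of these lists mNIA replicate 2 and UW replicate 1 had the lowest levels of their groups: for glycogen genes -0.76 in mNIA replicate 2 and -0.44 in UW replicate 1, against 0.06 to 0.36 in the other 6 hearts. Cdkn1a, a cell cycle inhibitor induced by p53 and by glucocorticoids and chosen after its values were seen, had 7.90, 12.7, 15.9 and 33.7 CPM in mNIA hearts, against 16.6, 41.1, 52.6 and 15.6 CPM in UW hearts. The high UW hearts were again replicates 2 and 3, as for Mt2 and Hif3a, and mNIA replicate 4 lay above the other 2 UW hearts.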
